A study of Mus musculus with 4 samples.

Results

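The 9 genes described here encode enzymes that build and break down glycogen, together with 1 subunit that holds a phosphatase on the glycogen particle. They were chosen by name, as Ugp2, Gyg, Gys1, Gys2, Gbe1, Ppp1r3c, Pygl, Pygb and Pygm, and each was found on a single row among the 55387 rows of every library. Their mRNA was measured in brown adipose tissue (BAT) of male mice aged 15 weeks and housed at 22 to 24 °C, with 2 mice per genotype and 1 RNA-seq library per mouse. The control mice were Sox4f/f, which carry loxP sites around Sox4 and which the labels call WT. The other mice were Sox4-MKO littermates, which carry the same floxed alleles plus a Cre transgene driven by Myf5. This gene is active in the embryonic precursors of both brown adipocytes and skeletal muscle, so deletion is aimed at both lineages. The comparison asks how brown fat mRNA differs when Sox4, a transcription factor, is removed from that lineage. Values are FPKM, fragments scaled to transcript length and library size, so that levels may be compared between genes of different length.

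Glycogen is a branched glucose polymer that brown adipocytes store and use as a local supply of glucose. UDP-glucose is made from glucose 1-phosphate by the Ugp2 product, a short primer is laid down by glycogenin (Gyg), chains are extended by glycogen synthase (Gys1, the muscle type, and Gys2, the liver and adipose type) and branches are added by the Gbe1 enzyme. Glycogen phosphorylase releases glucose 1-phosphate and exists in a liver (Pygl), a brain (Pygb) and a muscle (Pygm) type. Phosphorylation switches synthase off and phosphorylase on, and protein phosphatase 1, brought to glycogen by targeting subunits such as the Ppp1r3c product (also called PTG), reverses it.

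The libraries held an estimated 12100000 to 16200000 fragments, and the values of the 9 genes rested on an estimated 298 to 12258 fragments each. At the lowest of these, counting error alone is 5.79% of the value. Sox4 itself had 1.98 and 1.06 FPKM in Sox4f/f mice 1 and 2, against 0.981 and 3.06 FPKM in those labelled Sox4-MKO. The latter are called MKO-labelled libraries here, and every direction follows the labels. Both the lowest and the highest Sox4 value carried that label, and its values rested on an estimated 59 to 238 fragments. Its log2 fold change was 0.20 (95% interval -0.95 to 1.34, adjusted p = 0.843 by limma). Lower Sox4 mRNA under that label was thus neither shown nor excluded. The study reports strongly reduced SOX4 protein in BAT of younger Sox4-MKO mice. Brown adipocyte markers were abundant, with Ucp1 at 733 to 1940 FPKM. Of the 10 markers, 9 had lower fitted values in the MKO-labelled libraries and 6 were called lower at an unadjusted p under 0.05, against 8.28% of all genes tested, with 0 called after adjustment by limma. Markers of skeletal muscle were present in all libraries. Their summed level over 14 genes was 257 and 963 FPKM in Sox4f/f mice 1 and 2, and 18200 and 3170 FPKM in MKO-labelled mice 1 and 2. The RNA came from whole tissue, in which fewer cells of a type and less RNA per cell cannot be told apart. All 9 genes were detected in every library and passed the limit, a genotype mean over 1 FPKM for either genotype, as did 12877 genes.

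Of the 9 genes, only Pygm was called at an unadjusted p under 0.05, and it was higher in the MKO-labelled libraries. This is 11.1% of the members, against 16.2% of all genes tested that were called in either direction (7.95% higher and 8.28% lower). Those calls split into 1024 higher and 1066 lower genes, or 1322 and 745 after scaling to a common sum without mitochondrially encoded genes and Ucp1. After Benjamini-Hochberg adjustment over all genes by limma, 0 of the 9 and 0% of all genes were called, and the smallest adjusted p among the 9 was 0.267. The 2 genotypes did not overlap at 3 members, Gyg and Pygm (higher) and Pygb (lower). That is 33.3%, against 51.3% of all genes (21.7% higher and 29.6% lower), so neither share of the members was above its background. The median log2 fold change of the 9 genes was 0.08, against -0.05 over all genes, and turned to -0.04 when the library of MKO-labelled mouse 1 was left out. That library held the highest value of 6 of the 9 genes (66.7%), against 31.7% of all genes tested, and Sox4f/f mouse 1 held the lowest value of 6, against 22.7%.

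**Figure D1:**
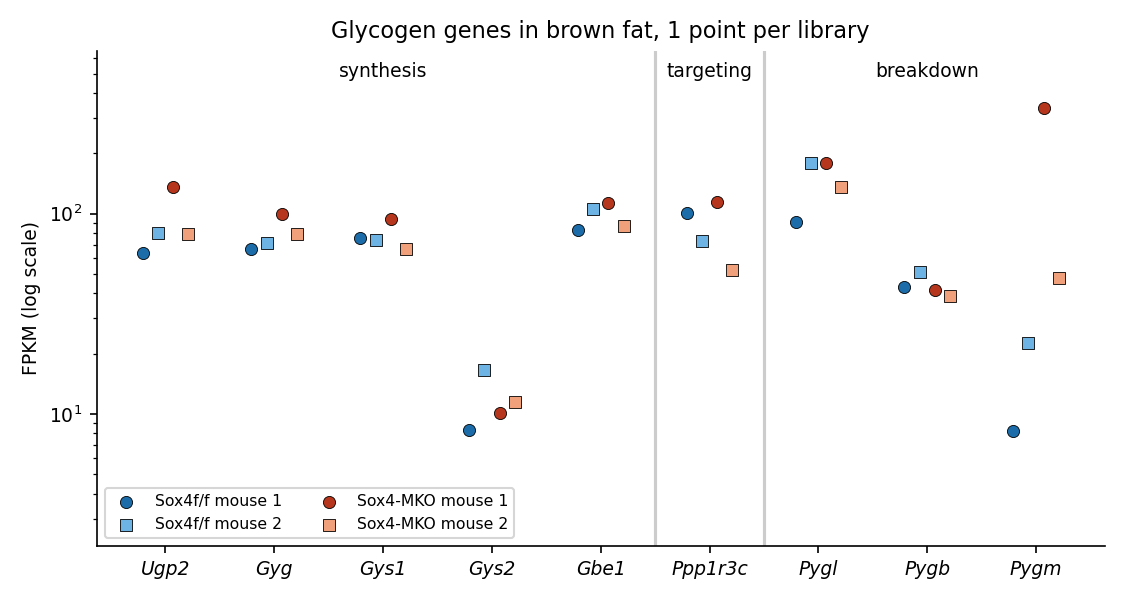
FPKM of the 9 genes on a log scale, with 1 point for each of the 4 libraries. Circles are mouse 1 and squares mouse 2, blue for Sox4f/f and red for MKO-labelled libraries. The libraries of a gene lie within 2.19-fold of each other except for Pygm, which spans 41.3-fold.

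Ugp2 and Gyg encode the enzymes for the supply of UDP-glucose and the priming of glycogen, of which only the mRNA was measured. Ugp2 (chromosome 11 of GRCm38, 21321138 to 21371201, minus strand) had 63.5 and 79.8 FPKM in Sox4f/f mice 1 and 2 and 136 and 78.7 FPKM in the MKO-labelled libraries. A single library, that labelled Sox4-MKO mouse 1, stood above the other 3, and mouse 2 of that label lay between the controls. The means were 71.6 ± 11.6 and 107 ± 40.5 FPKM (SD, n = 2 each), and the log2 fold change of 0.53 (SE 0.30, 95% interval -0.25 to 1.32, adjusted p = 0.434 by limma) was 0.14 without that library. Without the library of MKO-labelled mouse 2 it was 0.93, with an unadjusted p of 0.0124.

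Gyg (chromosome 3, 20122084 to 20155317, minus strand), which encodes the protein that glucosylates itself to start a glycogen particle, had 66.6 and 71.1 FPKM in Sox4f/f and 100 and 79 FPKM in the MKO-labelled libraries. Both libraries of that label lay above both controls. The means were 68.9 ± 3.22 and 89.7 ± 15.2 FPKM (SD, n = 2 each), 1.3-fold apart, and the log2 fold change was 0.37 (SE 0.16, 95% interval -0.05 to 0.78, adjusted p = 0.343 by limma). Its unadjusted p of 0.0718 missed the threshold with an adjusted p of 0.343 by limma, whereas it was 0.0343 after scaling to a common median, 0.0308 after quantile normalization and 0.0218 after scaling to a common sum without mitochondrially encoded genes and Ucp1. The call therefore depended on how the libraries were scaled. The log2 fold change was 0.20 without the library of MKO-labelled mouse 1.

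Most synthase mRNA was of the muscle type, Gys1, in every library. Gys1 (chromosome 7, 45434844 to 45456619, plus strand) had 75.3 and 74.2 FPKM in Sox4f/f and 94.1 and 66.4 FPKM in the MKO-labelled libraries, which lay on either side of the controls. The means were 74.8 ± 0.819 and 80.3 ± 19.6 FPKM (SD, n = 2 each), which gave a log2 fold change of 0.08 (SE 0.20, 95% interval -0.43 to 0.59, adjusted p = 0.858 by limma), or -0.17 without the library of MKO-labelled mouse 1. Gys2 (chromosome 6, 142422613 to 142473109, minus strand), the type named for liver and adipose tissue, had 8.34 and 16.6 FPKM in Sox4f/f and 10.1 and 11.5 FPKM in the MKO-labelled libraries. Here the 2 control mice enclosed the others. The log2 fold change of -0.12 (SE 0.33, 95% interval -1 to 0.76, adjusted p = 0.873 by limma) was 0.33 without Sox4f/f mouse 2.

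Gys2 made up 9.97% and 18.3% of the summed synthase FPKM in Sox4f/f mice 1 and 2 and 9.66% and 14.8% in MKO-labelled mice 1 and 2. Within each genotype the share was higher in mouse 2, and the genotypes overlapped. The ratio of Gys2 to Gys1, which a scaling factor for the library cannot change, differed by -0.21 on the log2 scale between the genotype means (-2.67 ± 0.72 in Sox4f/f and -2.88 ± 0.49 under the other label, SD, n = 2 each, exact two-sided permutation p = 0.667). In a comparison of 2 against 2 this test cannot go below 0.333.

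The branching enzyme gene Gbe1 (chromosome 16, 70313949 to 70569716, plus strand) had 83.2 and 106 FPKM in Sox4f/f and 113 and 86.8 FPKM in the MKO-labelled libraries, with the genotypes interleaved. Its log2 fold change was 0.08 (SE 0.20, 95% interval -0.45 to 0.60, adjusted p = 0.870 by limma), and was -0.10 without Sox4f/f mouse 1 and -0.11 without the library of MKO-labelled mouse 1. Ppp1r3c (chromosome 19, 36731731 to 36736653, minus strand), whose product recruits phosphatase 1 to glycogen and so favours synthesis, varied more within each genotype than between them. It had 101 and 73.1 FPKM in Sox4f/f and 114 and 52.3 FPKM in the MKO-labelled libraries, so that the highest and the lowest value both carried that label. The log2 fold change of -0.15 (SE 0.41, 95% interval -1.23 to 0.94, adjusted p = 0.881 by limma) became 0.41 without the library of MKO-labelled mouse 2 and -0.70 without mouse 1.

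**Figure D2:**
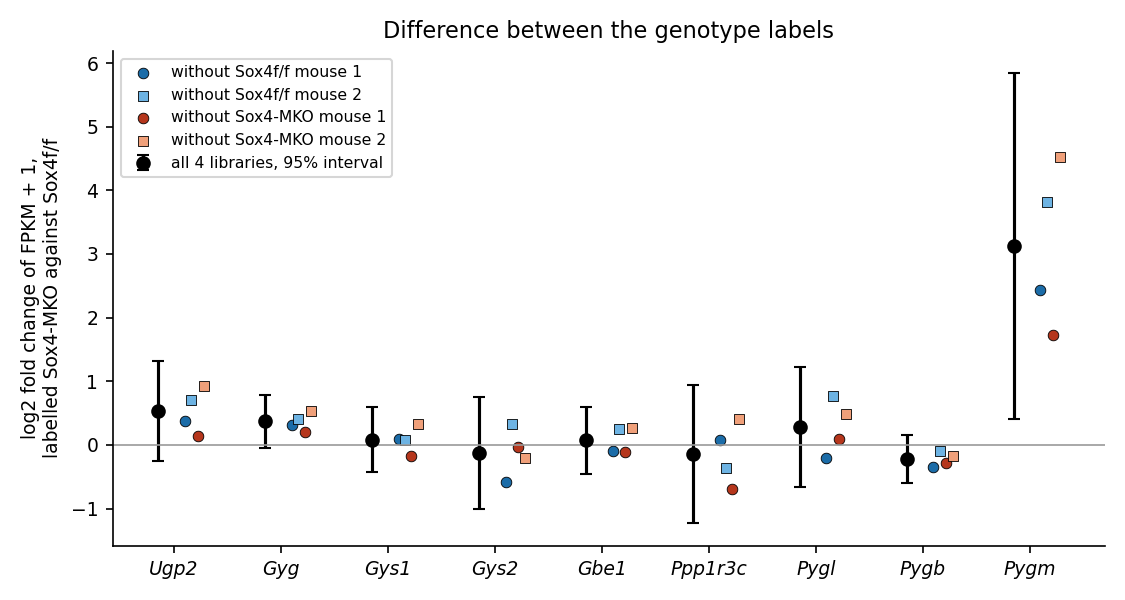
Log2 fold change of FPKM + 1 in MKO-labelled libraries against Sox4f/f for the 9 genes. Black points with bars are all 4 libraries with the 95% interval from limma, and coloured points leave out 1 library each. The interval excludes 0 for Pygm alone, whose value runs from 1.73 to 4.52 as each library is left out.

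Phosphorylase mRNA was mainly of the liver type in both controls. Pygl (chromosome 12, 70190811 to 70231488, minus strand) had 90.9 and 179 FPKM in Sox4f/f and 178 and 136 FPKM in the MKO-labelled libraries. Sox4f/f mouse 1 was the lowest of the 4 and Sox4f/f mouse 2 the highest. The means of 135 ± 62.4 and 157 ± 29.5 FPKM (SD, n = 2 each) gave a log2 fold change of 0.28 (SE 0.36, 95% interval -0.66 to 1.23, adjusted p = 0.716 by limma), which was -0.20 without Sox4f/f mouse 1 and 0.77 without Sox4f/f mouse 2, where the unadjusted p was 0.0489. The spread between the 2 control mice thus exceeded the difference between the genotypes.

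Pygb (chromosome 2, 150786735 to 150831758, plus strand), the brain type, which many tissues express, was the only one of the 9 that was lower without overlap. It had 42.9 and 51.4 FPKM in Sox4f/f and 41.6 and 38.6 FPKM in the MKO-labelled libraries, so that the nearest mice of the 2 genotypes were 42.9 and 41.6 FPKM. The means were 47.1 ± 6.01 and 40.1 ± 2.11 FPKM (SD, n = 2 each), which gave a log2 fold change of -0.22 (SE 0.14, 95% interval -0.60 to 0.15, adjusted p = 0.482 by limma). It stayed below 0 with each library left out in turn, from -0.35 to -0.10, and did not pass the test in any of these.

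Pygm (chromosome 19, 6384399 to 6398459, plus strand), the muscle type, had by far the widest range. It had 8.18 and 22.6 FPKM in Sox4f/f mice 1 and 2 and 337 and 47.8 FPKM in MKO-labelled mice 1 and 2. Both libraries of that label exceeded both controls, and they differed 7.06-fold from each other. The means were 15.4 ± 10.2 and 193 ± 205 FPKM (SD, n = 2 each), 12.5-fold apart, with a log2 fold change of 3.13 (SE 1.03, 95% interval 0.41 to 5.84, unadjusted p = 0.032, adjusted p = 0.267 by limma). Without the library of MKO-labelled mouse 1 the ratio was 3.10-fold and the log2 fold change 1.73 (unadjusted p = 0.0795). The call was also lost without Sox4f/f mouse 1 (2.44, unadjusted p = 0.164) and without Sox4f/f mouse 2 (3.81, unadjusted p = 0.0688), so of the 4 fits that leave out 1 library it held only without that of MKO-labelled mouse 2 (4.52, unadjusted p = 0.00413).

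Skeletal muscle markers moved with Pygm. All 14 had higher fitted values in the MKO-labelled libraries. At an unadjusted p under 0.05, 12 were called higher, against 7.95% of all genes (0 after adjustment by limma). Without overlap, 13 were higher, against 21.7% of all genes. Their median log2 fold change was 3.8. Across the 4 libraries their sum varied 70.9-fold, while Pygm expressed as a percentage of that sum varied 2.11-fold, with 3.18% and 2.35% in Sox4f/f mice 1 and 2 and 1.85% and 1.51% in the MKO-labelled libraries. Relative to single markers, Pygm varied from 1.72-fold (Pvalb, a calcium buffer of fast fibres) to 6.98-fold (Myh2, a myosin heavy chain). Relative to Pvalb it stood at 45.8%, 36.7%, 26.7% and 40.4% in the same order, and relative to Myh2 at 447%, 400%, 336% and 64%. Between these lay Ckm, the muscle creatine kinase gene, at 1.77-fold, the fast myosin gene Myh4 at 3-fold and the slow myosin gene Myh7 at 6.94-fold. None of the 14 markers was at 0 in any library. The part of muscle RNA in the difference of Pygm was not tested.

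**Figure D3:**
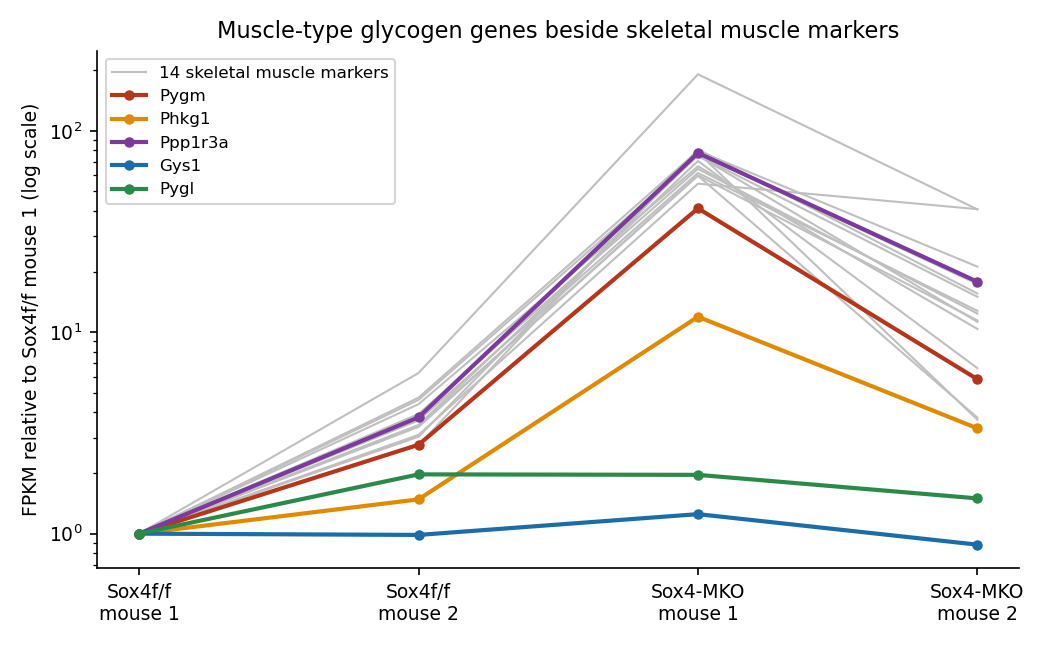
FPKM of each gene relative to its own value in Sox4f/f mouse 1, on a log scale, in the 4 libraries. Thin grey lines are the 14 skeletal muscle markers, thick lines are glycogen genes, and lines only join the points of a gene. Pygm, Ppp1r3a and Phkg1 peak in the library of MKO-labelled mouse 1 like the markers, whereas Gys1 and Pygl stay within 1.42-fold and 1.97-fold over the libraries.

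The phosphorylase pool was divided as follows. Pygl held 64.0% and 70.8% of the summed phosphorylase FPKM in Sox4f/f and 31.9% and 61.2% in MKO-labelled mice 1 and 2. Pygm held 5.76% and 8.94% in Sox4f/f and 60.6% and 21.5% in the others, without overlap. The log2 ratio of Pygl to Pygm was 3.23 ± 0.35 in Sox4f/f and 0.29 ± 1.72 in the MKO-labelled libraries (SD, n = 2 each), a difference of -2.94 that ranged from -4.15 to -1.72 with a library left out (exact two-sided permutation p = 0.333, the smallest possible). When Pygm was set aside, Pygl held 67.9% and 77.7% of the remaining pool in Sox4f/f and 81.1% and 77.9% in the others. The log2 ratio of Pygl to Pygb differed by 0.52, or 0.16 to 0.87 with a library left out (exact two-sided permutation p = 0.333). That of Pygb to Pygm differed by -3.45, again with an exact two-sided permutation p = 0.333. The summed synthesis genes to summed phosphorylase genes had a log2 ratio of 1.06, 0.46, -0.30 and 0.53 in the 4 libraries in order, with the genotypes overlapping (difference -0.64, or -1.06 to -0.23 with a library left out, exact two-sided permutation p = 0.667). These 5 ratios were the whole family compared, and with 2 mice each none could pass a threshold of 0.05 before or after adjustment.

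**Figure D4:**
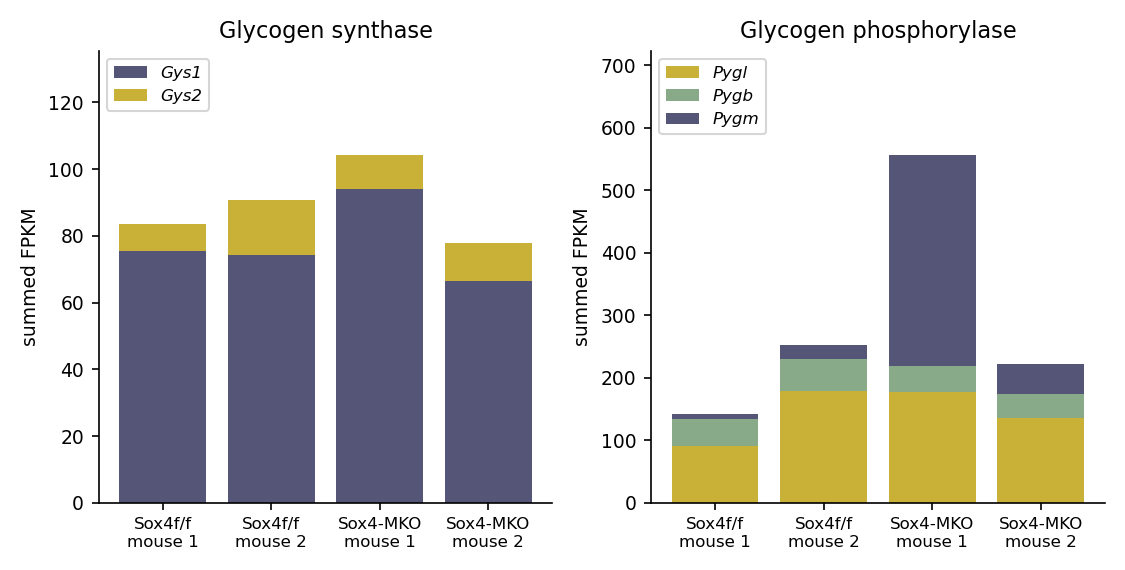
Summed FPKM of the glycogen synthase genes (left) and the glycogen phosphorylase genes (right) in each of the 4 libraries, as stacked bars from 0. The synthase sum lies between 77.9 and 104 FPKM with Gys1 as the main part, whereas the phosphorylase sum runs from 142 to 557 FPKM and Pygm is its largest part only in the library of MKO-labelled mouse 1.

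Over the 4 libraries Pygl varied 1.97-fold and Pygm 41.3-fold, and the 250 bases before the start sites of these 2 phosphorylase genes are shown for comparison. RefSeq start sites and sequences of GRCm38.p6 were used, and 8 of the 9 members had an entry (Gys2 did not). A RefSeq start need not be the outermost start of the gene in GENCODE. The Pygl window lies wholly inside the GENCODE span of the gene (70190811 to 70231488). The last bases of the Pygm window lie past the GENCODE start of that gene at 6384399. The Pygm window is chr19:6384158-6384407 on the plus strand, with matches to CAGCTG in capitals, the E-box form bound by myogenic factors. The Pygl window is chr12:70227684-70227933 on the minus strand, with GGGCGG and its reverse complement in capitals, the GC box bound by Sp1. Both are written 5′ to 3′.
Pygm: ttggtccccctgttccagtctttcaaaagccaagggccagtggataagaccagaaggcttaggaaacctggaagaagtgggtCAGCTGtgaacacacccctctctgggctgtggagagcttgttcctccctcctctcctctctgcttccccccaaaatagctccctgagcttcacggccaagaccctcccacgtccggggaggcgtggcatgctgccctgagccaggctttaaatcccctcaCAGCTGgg
Pygl: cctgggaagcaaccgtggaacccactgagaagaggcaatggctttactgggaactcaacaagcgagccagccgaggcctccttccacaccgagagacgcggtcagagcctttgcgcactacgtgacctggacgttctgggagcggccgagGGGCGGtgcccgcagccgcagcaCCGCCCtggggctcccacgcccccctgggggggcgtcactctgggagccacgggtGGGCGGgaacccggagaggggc

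Across all 32851 promoter windows of that length, 13.0% held CAGCTG, 32.7% held GGGCGG on either strand, 6.02% held CACGTG and 12.4% held TATAAA on either strand. The search used these 4 words, none of which overlapped another in the 2 windows shown. Pygm had 2 matches to CAGCTG, starting 168 and 8 bases before the start site, and none to the other words. Pygl had 3 matches to GGGCGG and none to the others. Gys1, Ppp1r3c and 1 of the 2 windows of Ugp2 had 1 match to CAGCTG each, so 4 of the 8 members with an entry held it. This tally counts genes, whereas the 13.0% counts windows. Matches to GGGCGG were also present in Gys1, Gyg and Ugp2, and 1 to CACGTG in Ppp1r3c. These matches describe the letters of the windows, and binding was not measured here.

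Outside the 9 genes, 31 further genes of glycogen metabolism were listed, of which 29 were tested. Gyg2 had no row in any library, and Ppp1r3g was at or below 0.158 FPKM in every library. Of the 29, 2 were called higher and 1 lower at an unadjusted p under 0.05, or 10.3% against 16.2% of all genes, and 0 after adjustment by limma. Their median log2 fold change was 0.15. The library labelled Sox4-MKO mouse 1 held the highest value of 19 of the 29 (65.5%), close to its share among the 9 members and above its 31.7% among all genes tested.

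The genes called higher were muscle forms of the regulatory machinery. Ppp1r3a, the targeting subunit of striated muscle, had 0.219 and 0.828 FPKM in Sox4f/f and 17.0 and 3.90 FPKM in the MKO-labelled libraries, a log2 fold change of 2.65 (SE 0.67, adjusted p = 0.223 by limma). It was 1.71 without the library of MKO-labelled mouse 1. With a pseudocount of 0.01 it was 4.22, since its control values are below the pseudocount of 1. Phkg1, the catalytic subunit of muscle phosphorylase kinase, had 3.21 and 4.75 FPKM in Sox4f/f and 38.3 and 10.7 FPKM in the others, a log2 fold change of 2.13 (SE 0.61, adjusted p = 0.241 by limma), or 1.25 without the same library. Both genes kept an unadjusted p under 0.05 without that library (0.0133 for Ppp1r3a and 0.0202 for Phkg1) but not without either Sox4f/f mouse. The muscle markers moved with them too, and their part was not tested.

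Values for the liver and general forms of the same proteins are given beside them, and the difference between forms was not tested. Phkg2 had 17.4 and 15.7 FPKM in Sox4f/f and 15.2 and 15.6 FPKM in the MKO-labelled libraries (log2 fold change -0.09, 95% interval -0.44 to 0.26). The regulatory subunit gene Phka2 had 14.4 and 17.9 FPKM against 17.5 and 13.4 FPKM (-0.06, 95% interval -0.58 to 0.46), while its muscle counterpart Phka1 had 3.53 and 3.91 against 14.9 and 4.73 FPKM (1.01, 95% interval -0.32 to 2.35). Phkg1 held 15.6% and 23.3% of the summed catalytic subunit FPKM in Sox4f/f and 71.5% and 40.7% in the others. Phka1 held 19.7% and 18.0% of the alpha subunit pool in Sox4f/f and 45.9% and 26% in the others. The shared beta subunit gene Phkb had 24.9 and 21 FPKM in Sox4f/f and 51.7 and 24.1 FPKM in the others, with only the library of MKO-labelled mouse 1 above both controls, and its log2 fold change was 0.61, or 0.07 without that library.

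Gsk3a was the gene called lower. It encodes a kinase that phosphorylates and inactivates glycogen synthase. It had 51.8 and 45.4 FPKM in Sox4f/f and 37.3 and 33.4 FPKM in the MKO-labelled libraries, without overlap. The means were 48.6 ± 4.52 and 35.3 ± 2.74 FPKM (SD, n = 2 each), which gave a log2 fold change of -0.45 (SE 0.14, 95% interval -0.81 to -0.09, adjusted p = 0.247 by limma). It lay between -0.54 and -0.36 with each library left out, though its unadjusted p passed 0.05 only without the library of MKO-labelled mouse 1 (0.0347). Its relative Gsk3b had 16.8 and 19.3 FPKM in Sox4f/f and 18.2 and 16.3 FPKM in the others, a log2 fold change of -0.06 (95% interval -0.45 to 0.32). Whether the 2 kinase genes differed in response was not tested.

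Of the other enzymes around the pathway, the phosphoglucomutase gene listed as Pgm1, which links glucose 1-phosphate and glucose 6-phosphate, had 97.0 and 104 FPKM in Sox4f/f and 158 and 115 FPKM in the MKO-labelled libraries (log2 fold change 0.42, 95% interval -0.07 to 0.91), without overlap. The names Pgm1 and Pgm2 were exchanged between annotations, and the symbol alone does not say which locus was counted. Gaa, the lysosomal glucosidase that digests glycogen by a separate route, had 26.1 and 22.6 FPKM against 32.4 and 27.7 FPKM (0.29, 95% interval -0.10 to 0.69), also without overlap. Ugdh, which oxidizes UDP-glucose and so competes for it, had 9.57 and 9.3 FPKM against 13.4 and 11.5 FPKM (0.36, 95% interval -0.03 to 0.75). None of these 3 genes passed the test, nor did Calm2 and Calm3, which encode calmodulin, a subunit of phosphorylase kinase, both with a log2 fold change of 0.24. As for Gyg, this depended on the scaling for Pgm1, Ugdh, Gaa and Calm2, but not for Calm3. The unadjusted p of Pgm1 was 0.0403, 0.0364 and 0.0258, and that of Ugdh 0.0371, 0.0447 and 0.027, with the common median, quantile normalization and the common sum. Gaa (0.0433) and Calm2 (0.0354) were under 0.05 with the common sum alone of these 3 scalings. Without the library of MKO-labelled mouse 1 the log2 fold change was 0.19 for Pgm1, 0.18 for Gaa, 0.25 for Ugdh, 0.15 for Calm2 and -0.08 for Calm3.

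Among targeting subunits of phosphatase 1, Ppp1r3c and Ppp1r3b, the liver-type subunit, were the most abundant in every library. Ppp1r3b had 54.2 and 81.3 FPKM in Sox4f/f and 94.3 and 63.4 FPKM in the others (0.22, 95% interval -0.54 to 0.97). Ppp1r3d had 11.6 and 18.5 against 11.1 and 12.7 FPKM (-0.29, 95% interval -0.95 to 0.37). Ppp1r3c held 56.6% and 39.7% of the summed targeting subunits in Sox4f/f and 46.0% and 36.9% in the others, and Ppp1r3a at most 6.84%. None of the catalytic subunit genes passed the test, with log2 fold changes of 0.12 for Ppp1ca (95% interval -0.16 to 0.40), -0.14 for Ppp1cb (-0.57 to 0.28) and 0.11 for Ppp1cc (-0.33 to 0.55).

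**Figure D5:**
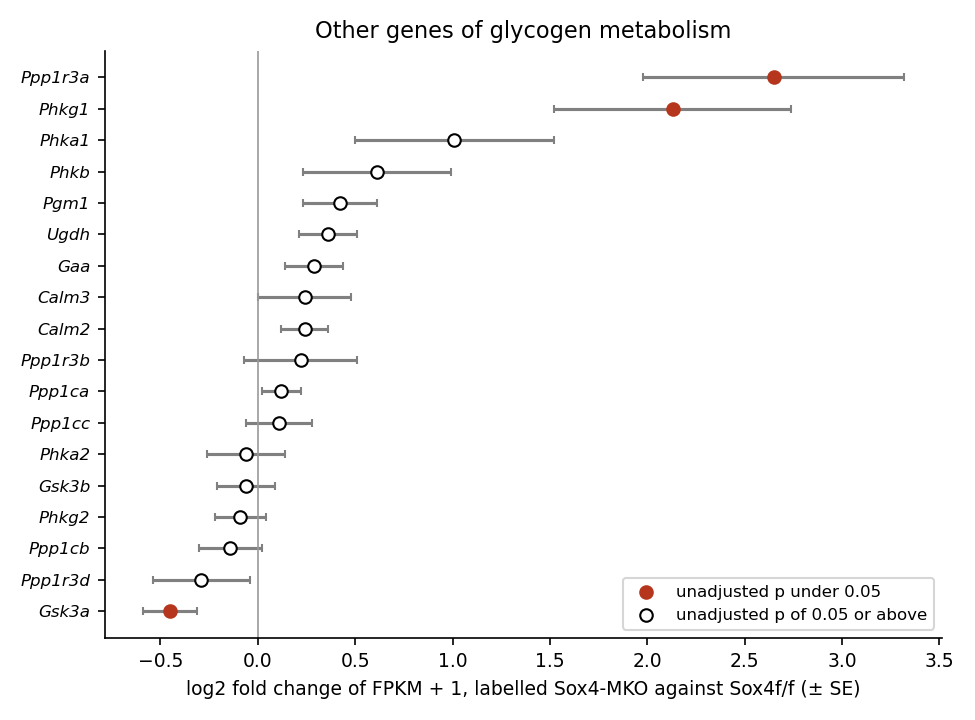
Log2 fold change of FPKM + 1 in MKO-labelled libraries against Sox4f/f for 18 of the 29 further tested genes of glycogen metabolism, those named in the text, with bars of 1 SE from limma. Filled points have an unadjusted p under 0.05, which are Ppp1r3a and Phkg1 on the right and Gsk3a on the left.

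Levels within brown fat are given by rank. In every library, Gys1, Gyg, Gbe1, Ugp2, Pygl, Pygb and Ppp1r3c lay between percentile 86.4 and percentile 96.8 of the tested genes by FPKM. Gys2 lay between 48.8 and 68.6, and Pygm between 48.2 and 98.2. In Sox4f/f mouse 1 the order ran from Ppp1r3c (101 FPKM) through Pygl, Gbe1, Gys1, Gyg, Ugp2 and Pygb to Gys2 (8.34 FPKM) and Pygm (8.18 FPKM). In Sox4f/f mouse 2 Pygl led with 179 FPKM, so the order of the genes above Pygb did not hold between the control mice. Pygb remained below these 6 genes and above Gys2 in all 4 libraries, as its range of 38.6 to 51.4 FPKM did not meet theirs.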

How the data were processed

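BAT RNA of 2 Sox4f/f and 2 Sox4-MKO mice was sequenced, and groups follow the sample labels. The authors deposited 1 FPKM value per gene and library. The submitters' processing notes name Cufflinks 2.1.1, Cuffdiff and mm10; the aligner and annotation are not given in the sources used here. The labels describe a column kit and a stranded library, the methods of the study TRIzol and TruSeq. Depth was estimated from the FPKM steps of low genes with 1 GENCODE M21 transcript of at least 1500 nt, and is approximate.

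limma 3.58.1 (R 4.3.3) was fitted to log2(FPKM + 1) of genes with a genotype mean over 1, with genotype as the only term and a trended prior. This scale understates changes of low genes. p-values are two-sided, and adjusted ones use Benjamini-Hochberg over 12877 genes. Ratios were compared by exact permutation. The code was tested on simulated data. Members and lists were chosen with earlier results of these data known. All members were named, and pathway genes with an unadjusted p under 0.05 or a genotype mean above 10 FPKM, apart from some that are counted but not reported here. Phka1, Ppp1r3g and Lep were added after their values were seen. Coordinates come from GENCODE M21 by symbol. Alternatives covered scaling, limit, pseudocount, prior, a replicate block and each library left out.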

Additional observations from a re-analysis of the deposited data

How the results depend on the processing

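The number of members called was 1 in the reported fit. It was 0 with the replicate number as a block (Pygm unadjusted p = 0.0512, adjusted over all genes 0 called by limma) and 2 after scaling to a common median, quantile normalization or a common sum without mitochondrially encoded genes and Ucp1, Gyg being added in each. With a library left out it lay between 0 and 3. The FPKM limit, the pseudocount and the constant prior left it at 1. The same-numbered libraries share only a number (correlation of their deviations -0.01 over 12877 genes), and the block moved the count over all genes from 2090 to 1908. Members without overlap numbered 3, and between 5 and 7 with a library left out, where a lone library makes overlap less likely by construction. The median log2 fold change of the members lay between -0.04 and 0.41. Pathway genes called numbered 3, and 5, 5 and 7 under the 3 scalings in the order above, and between 0 and 8 with a library left out. Over all genes between 849 and 2394 were called with a library left out, with 849 without Sox4f/f mouse 1 and 1070 without Sox4f/f mouse 2. Of 117 values of members under alternatives, 100 kept direction and side of the threshold, 4 lost the call, 6 gained it and 7 changed sign.

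Ranges of the log2 fold change with a library left out, where the sign changed, were -0.17 to 0.33 for Gys1, -0.58 to 0.33 for Gys2, -0.11 to 0.26 for Gbe1, -0.20 to 0.77 for Pygl, -0.70 to 0.41 for Ppp1r3c and -0.32 to 0.71 for Sox4. Among pathway genes they were -0.07 to 0.51 for Ppp1r3b, -0.60 to 0.02 for Ppp1r3d, -0.31 to 0.03 for Ppp1cb, -0.05 to 0.27 for Ppp1cc, -0.24 to 0.12 for Phka2, -0.16 to 0.03 for Gsk3b and -0.08 to 0.56 for Calm3. With the common sum without mitochondrially encoded genes and Ucp1, Phka2 was at 0.01 and Gsk3b at 0.00. The log2 ratio of Gys2 to Gys1 differed by -0.72 to 0.30 with a library left out. The other 4 ratios kept their sign when a library was left out. The causes were not tested. With 2 mice per genotype the spread between mice is poorly known, and its part in the precision, beside that of depth, was not tested.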

Other observations

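All 6 genes tested of glucose uptake and glucose 6-phosphate handling (Slc2a1, Slc2a4, Hk1, Hk2, G6pc3 and Gpi1) had lower fitted values in the MKO-labelled libraries. The same held for 7206 of the 12877 genes tested. Their log2 fold changes ran from -0.49 to -0.06 (Gpi1), and 3 were lower without overlap, against 29.6% of all genes. Other scalings were not examined for these 6 genes. At an unadjusted p under 0.05, 2 were called lower, against 8.28% of all genes (0 after adjustment by limma). These were the hexokinase Hk2, with 104 and 109 FPKM in Sox4f/f and 78.8 and 79 FPKM in the others (log2 fold change -0.43, SE 0.11, adjusted p = 0.222 by limma), and the transporter Slc2a1, with 5.49 and 4.94 against 3.82 and 3.08 FPKM (-0.49, SE 0.18, adjusted p = 0.304 by limma).

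All 7 macrophage markers were higher without overlap in the MKO-labelled libraries, with a summed level of 188 and 280 FPKM in Sox4f/f and 387 and 384 FPKM in the others, and 5 were called higher at an unadjusted p under 0.05 (0 after adjustment by limma). Over all genes, 21.7% were higher without overlap and 7.95% were called higher. The 6 hepatocyte markers summed to 0.143 to 2.01 FPKM, with 5 of them at 0 in at least one library, beside liver-type Pygl at 90.9 FPKM or more. The 6 neutrophil markers summed to 2.85 to 11.2 FPKM, with 1 called of 3 tested. Red blood cell markers summed to 841 to 1550 FPKM, endothelial markers to 91.6 to 148 FPKM and nerve markers to 18.0 to 62.7 FPKM, with no gene of these 3 lists called. Of the 6 adipocyte markers, 1 was called, against 16.2% of all genes. This was Lep, with 11.8 and 21.5 FPKM in Sox4f/f and 47.4 and 38.3 FPKM in the others (unadjusted p = 0.00828, adjusted p = 0.214 by limma). Of these 6 markers, 3 had higher and 3 had lower fitted values in the MKO-labelled libraries. Lep was higher without overlap, whereas Plin1 and Pparg were lower without overlap, as were 29.6% of all genes.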
